A study of Homo sapiens with 13 samples.

Results

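Nonsense-mediated decay is the pathway by which cells destroy messenger RNAs whose reading frame ends too early, most often because a stop codon lies upstream of an exon junction. Many genes of RNA-binding proteins carry a "poison" exon whose inclusion creates such a transcript. SRSF2, an SR protein, binds exonic RNA through its RNA recognition motif and promotes inclusion of the exons it binds, so it takes part in the choice between productive and decay-prone isoforms. Its P95H change lies beside that motif, recurs in myelodysplastic syndromes and related leukemias, and is known to shift the preference of the protein between the short RNA motifs CCNG and GGNG.

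The windows described here are the stretches of RNA that the authors' deposited table of differential SRSF2 binding assigns to a transcript of the biotype nonsense_mediated_decay, each position counted once. There were 363 of them among 8100 positions in the table, on 201 transcripts of 186 genes, and every one of the 186 was annotated as a protein-coding gene. The annotation of the transcript alone chose the windows, and no measured value did, although every entry of that table had already passed the authors' threshold of a 2-fold change and an adjusted p of at most 0.05. Windows were 21 nt long in 337 cases and 22 nt in 26, with both ends counted, and their positions are on hg38 as the table gives them. Placement in exons, introns or UTRs was not analysed here.

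Binding was measured by HITS-CLIP, the sequencing of RNA crosslinked to an immunoprecipitated protein, here through a Flag tag, in HEL cells, a human erythroleukemia line. Cells stably carried SRSF2 with the P95H change (P95H, 4 samples) or wild-type SRSF2 (WT, 4 samples), and both received 1 µg/ml doxycycline for 36 hours. Total RNA, depleted of rRNA, was sequenced from P95H cells (2 samples) and WT cells (2 samples) after 48 hours of doxycycline, and from 1 P95H sample labelled uninduced. The endogenous SRSF2 gene is not described as altered in any group, the sources used here do not say whether the lines were clones.

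Genome sequence was at hand for 10 of the 363 windows, those lying wholly inside the promoter entries of RefSeq (GRCh38.p14, 250 bases before to 50 bases after a start site). They are shown because they let the bases under a window be read beside its change, with the DNA letters of the transcript strand 5′ to 3′ and matches to CCNG or GGNG in capitals. The first pair were higher in P95H and the rest lower.
HIST2H4A, chr1:149832679-149832699, plus strand: gcggtcatgtCCGGcagagga
HIST2H4B, chr1:149861117-149861137, minus strand: gcggtcatgtCCGGcagagga
MAX, chr14:65102332-65102352, minus strand: tgggccgtaggaaatgagcga
MAX, chr14:65102334-65102354, minus strand: CCTGggccgtaggaaatgagc
MAX, chr14:65102339-65102359, minus strand: cgctcCCTGggccgtaggaaa
MAX, chr14:65102342-65102362, minus strand: ggccgctcCCTGggccgtagg
PSMC5, chr17:63827477-63827497, plus strand: gctgaagagagaagatGGCGc
PSMC5, chr17:63827489-63827509, plus strand: agatGGCGcttgacggaCCAG
RBM6, chr3:49940155-49940175, plus strand: gtccgcGGCGctgggtcGGTG
RASA1, chr5:87268899-87268919, plus strand: ctcgggacagtggacgaaggt

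HIST2H4A and HIST2H4B, which encode histone H4, gave the same 21 bases and the same deposited values, P95H means of 0.83 CPM and WT means of 0.12 CPM, so reads from the 2 copies cannot be told apart and they are a single observation. CPM are read counts scaled by library depth, given as the authors' means over the samples of a genotype. PSMC5, a proteasome ATPase, had means of 0.05 CPM in P95H and 1.31 CPM in WT at its first window, and 0.69 CPM in P95H and 3.61 CPM in WT at its second, 12 nt downstream. RBM6, an RNA-binding protein gene, had 0.41 CPM in P95H and 1.46 CPM in WT, and RASA1, a Ras GTPase-activating protein gene, 0.07 CPM in P95H and 0.53 CPM in WT. The 4 MAX windows, in the gene of the dimerization partner of MYC, overlap within 31 nt, and had 1.41 CPM in P95H and 4.19 CPM in WT at 2 of them and 0.61 CPM in P95H and 2.45 CPM in WT at the other 2. All windows of MAX, PSMC5 and RASA1, 7 of the 10, lay upstream of the start site of their RefSeq entry.

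CCNG occurred in 2 of 2 readable windows that were higher in P95H and in 4 of 8 that were lower, and GGNG in 0 of 2 and 3 of 8, with both motifs sought on the transcript strand. Of the 4 lower windows with CCNG 3 are MAX windows that hold the same CCTG, and with overlapping windows merged CCNG stood in 2 of 4 lower regions. On the complementary strand of the same windows the counts were 2 of 2 and 5 of 8 for CCNG, and 0 of 2 and 2 of 8 for GGNG. A RefSeq promoter entry also covered 106 windows of other transcript classes. Of these, CCNG was found in 15.4% of the 39 that were higher and 31.3% of the 67 that were lower, and GGNG in 53.8% and 52.2%. The first 21 bases after the start site held CCNG in 39.6% and GGNG in 34.6% of all 35116 promoter entries. With 2 histone copies as the readable higher windows, these counts give no order between the motifs, and a match is a description of letters, not a binding site.

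Most windows in decay-annotated transcripts were bound less by P95H than by WT. Of the 363 windows 99 (27.3%, 95% Wilson interval 22.9 to 32.1) were higher in P95H and 264 lower in the authors' deposited table, beside 22.3% higher and 77.7% lower among all 8100 windows listed. The interval treats windows as independent, which overlapping ones are not. Merging windows that overlapped and had 1 direction left 228 regions, of which 73 were higher and 155 lower. The direction of merged regions over all windows was not counted. With each gene counted once, by its window of smallest adjusted p, 64 of 186 (34.4%) were higher. Of the 2298 genes with windows of other classes 35.6% had a median change above 0, so by gene no excess was seen. Retained-intron windows had 25.4% higher, processed-transcript windows 20.5% and protein-coding windows 19.3%. The median deposited log2 change was -1.54 for decay-annotated windows and -1.62 for all windows, and 47.4% and 49.0% of them changed at least 4-fold. Counted by window, the share of higher ones was above that of each of these 3 classes, and the difference was not tested, since windows are not replicates.

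The 2 directions differed in how strongly the RNA was bound. The mean of the genotype with more binding had a median of 1.70 CPM in the higher windows and 3.37 CPM in the lower ones, against 1.81 and 4.89 CPM over all windows. Among the 183 windows at or above the median of 2.76 CPM, 17.5% were higher in P95H. The strongest sites were lower in P95H, and the highest P95H mean in any window was at HSP90AA1.

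**Figure D1:**
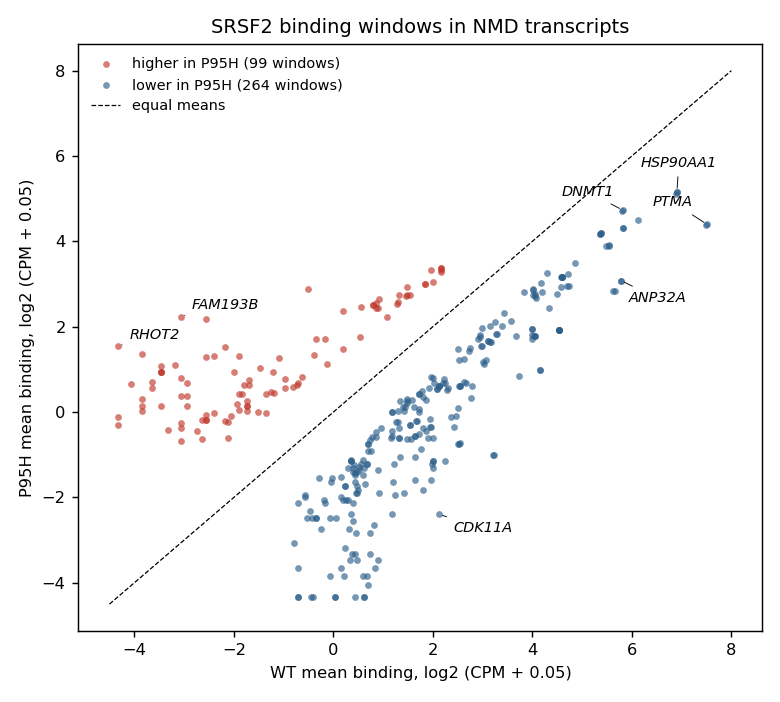
Mean binding of the 363 windows in P95H (vertical axis) against WT (horizontal axis), both as log2 (CPM + 0.05), from the authors' deposited means, with the dashed line marking equal means. The empty band along the line comes from the authors' 2-fold threshold, and windows higher in P95H (red, 99) end at lower levels than those lower in P95H (blue, 264).

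The spread between samples was large beside these differences. The deposited standard error of the larger mean was a median of 0.738 of that mean, and it reached at least 0.95 in 39 of 363 windows (10.7%), as in 10.8% of all windows. With 4 samples this ratio equals 1 when a single sample carries all of the signal. The difference between the deposited means was under 2 combined standard errors in 358 of 363 windows (98.6%) and under 1 in 188 (51.8%), while each had passed the authors' own test. Over all windows of the table these shares were 99.0% and 49.5%. The sources used here do not give how the authors' test handled this spread, and values of single HITS-CLIP samples were not analysed here.

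The 8 genes with the most strongly bound windows all had lower P95H means. PTMA, the gene of prothymosin alpha, a small acidic nuclear protein, had a window on transcript PTMA-011 (chr2:231711918-231711938, plus strand) with authors' means of 21.05 CPM in P95H (SE 14.67) and 182.29 CPM in WT (SE 161.8). ANP32A, another acidic nuclear protein gene, had 8.39 CPM in P95H (SE 6.21) and 55.17 CPM in WT (SE 50.03) at its strongest window (chr15:68783001-68783021, minus strand). At both genes the WT standard error was close to the mean. HSP90AA1, which encodes the stress-inducible cytosolic HSP90, had authors' means of 35.74 CPM in P95H (SE 23.77) and 119.8 CPM in WT (SE 94.19) at chr14:102084949-102084969 on the minus strand. DNMT1, the maintenance DNA methyltransferase gene, had 26.55 CPM in P95H (SE 16.01) and 56.25 CPM in WT (SE 41.46), a log2 change of -1.09 near the 2-fold limit of the authors' deposited table.

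TPM3, a tropomyosin gene, had authors' means of 18.15 CPM in P95H (SE 11.8) and 41.41 CPM in WT (SE 20.32) at chr1:154172903-154172924 on the minus strand. METAP2, a methionine aminopeptidase gene, had 3.75 CPM in P95H (SE 3.06) and 23.03 CPM in WT (SE 13.5) in a window near the 5′ end of the gene. PRPF4B, a kinase gene of pre-mRNA splicing, had 9.47 CPM in P95H (SE 6.67) and 19.47 CPM in WT (SE 7.38), the smallest relative error in WT among the 8. RP11-542C16.2, known by its clone name and overlapping GPS2 on the same strand, had 7.64 CPM in P95H (SE 6.03) and 26.74 CPM in WT (SE 20.37). Reads there may belong to either gene.

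ANP32A, RP11-542C16.2, HSP90AA1 and TPM3, the 4 genes with most windows, held 52 of the 363 windows (14.3%), all lower in P95H. Their windows overlapped one another heavily. The 12 windows of HSP90AA1 spanned 127 nt in 3 regions, with authors' log2 changes of -1.78 to -1.30, and the 11 of TPM3 spanned 55 nt in 2 regions, at -1.46 to -1.18 in the authors' deposited table. Along HSP90AA1 the authors' means were lower downstream in both genotypes, with 6.29 to 6.73 CPM in P95H and 16.11 to 16.82 CPM in WT at the 3 most downstream windows. The 16 windows of ANP32A lay in 6 regions from 0.243% to 98.8% of the way along the gene. P95H was listed at 0.00 CPM in 1 of them, where WT had 0.70 CPM (SE 0.56). Without these 4 genes 99 of 311 windows (31.8%) were higher in P95H.

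**Figure D2:**
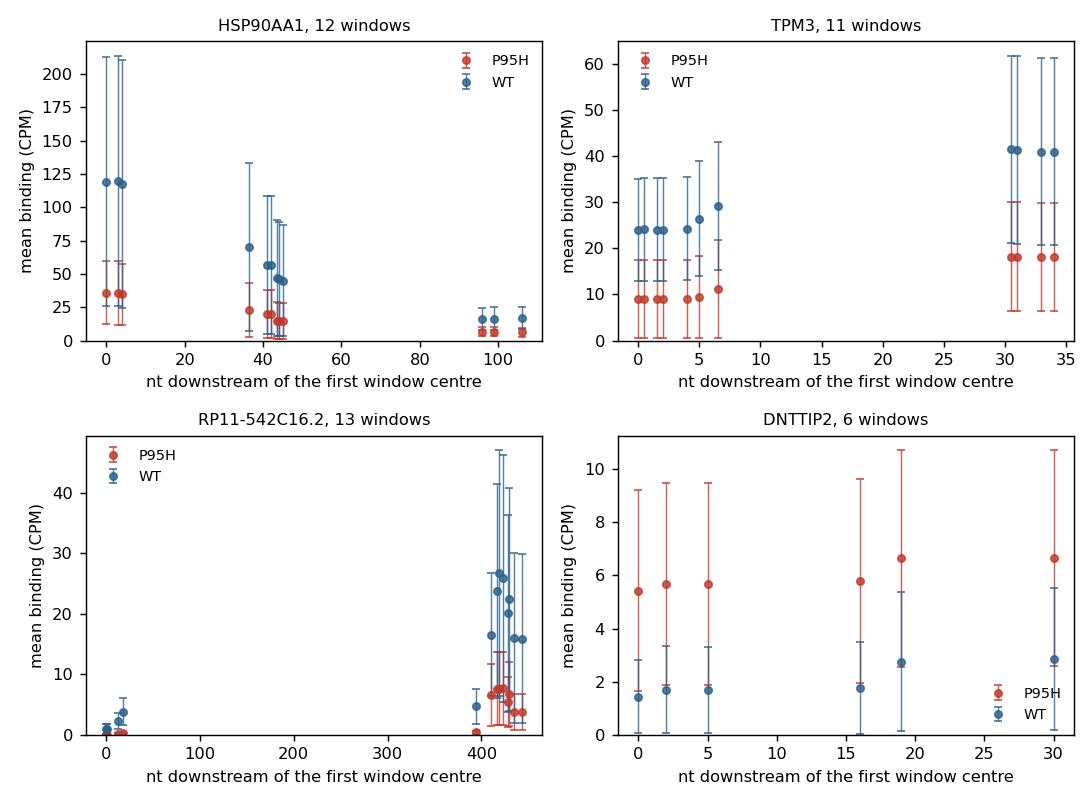
Authors' mean binding in CPM with their standard errors (bars) in P95H (red) and WT (blue) along 4 host genes, against the distance in nt from the centre of the most upstream window. P95H lies below WT at every window of HSP90AA1, TPM3 and RP11-542C16.2 and above it at the 6 windows of DNTTIP2, and the error bars of the genotypes overlap at most windows.

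The largest falls in binding, among windows at or above the median level, are given here for 8 genes, 1 window each. CDK11A, a cyclin-dependent kinase gene tied to splicing, had authors' means of 0.14 CPM in P95H (SE 0.11) and 4.31 CPM in WT (SE 3.59) at chr1:1708891-1708911 on the minus strand, a log2 change of -4.66 in the authors' deposited table (authors' adjusted p 2.29e-12). This stretch also overlaps CDK11B, a near-identical copy. RBM25, a splicing regulator gene, had 0.45 CPM in P95H (SE 0.45) and 9.29 CPM in WT (SE 7.85), and all 5 of its windows were lower. DDX46, whose helicase acts with the U2 snRNP, had 0.23 CPM in P95H (SE 0.17) and 3.43 CPM in WT (SE 1.97). ACIN1, encoding acinus, a partner of the exon junction complex, had 1.93 CPM in P95H (SE 1.41) and 17.73 CPM in WT (SE 15.19), and its 4 windows were all lower.

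PAF1, of the polymerase-associated complex of that name, had authors' means of 0.55 CPM in P95H (SE 0.31) and 5.61 CPM in WT (SE 3.27). GNA15, a G protein alpha subunit of blood cells, had 0.38 CPM in P95H (SE 0.23) and 3.93 CPM in WT (SE 3.63), with 4 lower windows in 32 nt near its 5′ end. The read-through gene ZNF559-ZNF177 had 0.28 CPM in P95H (SE 0.22) and 3.05 CPM in WT (SE 1.70), and the second region of RP11-542C16.2 had 0.28 CPM in P95H (SE 0.22) and 3.83 CPM in WT (SE 2.28). In these 8 genes the WT standard error was 0.557 to 0.924 of the WT mean.

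Several of the largest rises had standard errors close to the mean. RHOT2, a gene of a mitochondrial outer membrane GTPase, had authors' means of 2.87 CPM in P95H (SE 2.84) and was listed at 0.00 CPM in WT at chr16:670965-670985 on the plus strand. CIRBP, the cold-inducible RNA-binding protein gene, had 4.46 CPM in P95H (SE 4.28) and 0.12 CPM in WT (SE 0.08), and SLC25A37, the erythroid mitochondrial iron importer mitoferrin, 2.83 CPM in P95H (SE 2.79) and 0.17 CPM in WT (SE 0.11). In these 3 the P95H standard error was 0.960 to 0.990 of the mean. FAM193B was steadier, with 4.67 CPM in P95H (SE 2.85) and 0.07 CPM in WT (SE 0.06) at chr5:177523995-177524015 on the minus strand, a log2 change of 5.29 in the authors' deposited table (authors' adjusted p 2.52e-14).

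ACTB, the beta-actin gene, had authors' means of 5.10 CPM in P95H (SE 4.59) and 1.09 CPM in WT (SE 0.87), and all 4 of its decay-annotated windows were higher. PAM, the peptide-amidating enzyme gene, had 3.22 CPM in P95H (SE 1.91) and 0.73 CPM in WT (SE 0.72). DNTTIP2 had 5.42 CPM in P95H (SE 3.78) and 1.43 CPM in WT (SE 1.38), and CRCP, an RNA polymerase III subunit gene, 6.21 CPM in P95H (SE 3.31) and 1.83 CPM in WT (SE 1.73). These 4 changes were 1.56 to 2.25 on the log2 scale in the authors' deposited table.

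Most host genes, 109 of 186, had a single window. Counting these, there were 120 genes with lower windows alone, 60 with higher windows alone and 6 with both in the authors' deposited table. Among the 77 genes with 2 or more windows, 57 had lower windows alone, 14 higher alone and 6 both. Many windows of a gene overlap, and of the 33 genes with windows in 2 or more separate regions 21 had lower windows alone, 6 higher alone and 6 both. Of the 32 genes with 3 or more windows, 21 had lower windows alone, 7 higher alone and 4 both. The 7 were MPHOSPH9 (7 windows), DNTTIP2 (6), the ubiquitin ligase gene HERC2 (5), ACTB (4), the MHC class I light chain gene B2M (3), the ARF exchange factor gene CYTH2 (3) and the histone methyltransferase gene WHSC1 (3). Of the 363 windows 206 overlapped another of them, and the values of the 3 of CYTH2 were identical, at 1.86 CPM in P95H (SE 1.84) and 0.04 CPM in WT (SE 0.04).

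**Figure D3:**
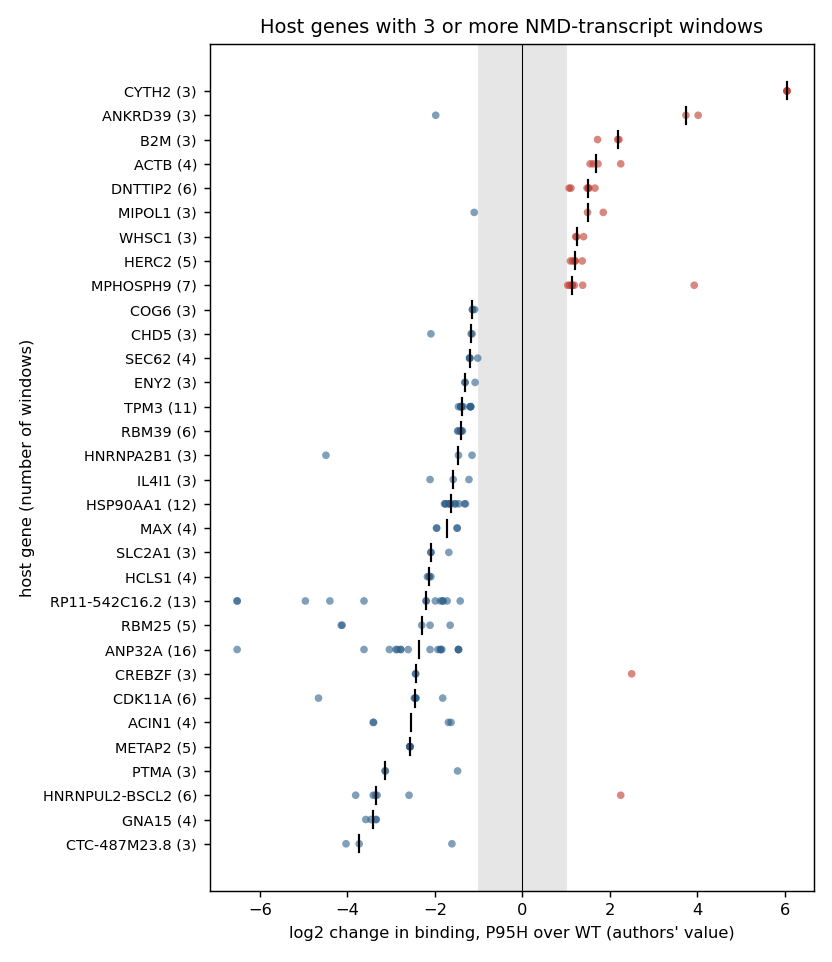
Authors' log2 change of binding, P95H over WT, for each window (points) of the 32 host genes with 3 or more windows, ordered by the gene's median (black bar), red where higher in P95H and blue where lower. The grey band from -1 to 1 is empty because of the authors' threshold, and ANKRD39, MIPOL1, CREBZF and HNRNPUL2-BSCL2 are the 4 genes with points on both sides.

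The 6 genes with windows in both directions were ANKRD39, CREBZF, HNRNPA1, HNRNPUL2-BSCL2, MIPOL1 and RNASET2. In RNASET2, a lysosomal ribonuclease gene, the authors' means were 1.05 CPM in P95H (SE 0.50) and 0.04 CPM in WT (SE 0.04) at chr6:166943361-166943381, and 0.09 CPM in P95H (SE 0.04) and 1.62 CPM in WT (SE 1.30) at chr6:166956455-166956475, both on the minus strand. CREBZF, a bZIP transcription factor gene, changed sign within 94 nt, with 1.29 CPM in P95H (SE 0.56) and 0.23 CPM in WT (SE 0.09) at its higher window and 0.25 CPM in P95H (SE 0.10) and 1.13 CPM in WT (SE 0.75) at both lower ones. HNRNPA1, an hnRNP gene, had 1.32 CPM in P95H (SE 1.00) and 0.39 CPM in WT (SE 0.23) at its higher window, and 2.28 CPM in P95H (SE 1.15) and 5.69 CPM in WT (SE 2.73) at its lower one. All of these windows had means under 6 CPM, and a second gene of a clone name overlaps HNRNPA1 and the higher window of RNASET2 on the same strand.

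Decay-annotated windows lay in 186 of 2439 genes with any window (7.63%), and in 0.318% of all 58581 genes of the count table. Shares of a list below are over all its genes, so they do not compare with the 7.63%. Of 13 SR protein genes, known for decay-prone isoforms, 9 had any window and SRSF7 alone held a decay-annotated one (7.69% of the list). The authors' means there were 2.07 CPM in P95H (SE 1.99) and 0.04 CPM in WT (SE 0.02) (chr2:38751070-38751090, minus strand). SRSF2 and 7 other SR protein genes had 17 windows under other transcript classes, of which 4 were higher (23.5%, beside 1704 of all 7737 windows of other classes). Of 27 hnRNP and other splicing regulator genes 16 had any window and 5 were hosts (18.5% of the list). HNRNPA2B1 had 3 lower windows, the strongest at 4.98 CPM in P95H (SE 2.43) and 10.72 CPM in WT (SE 7.43). HNRNPM had a pair of lower windows with P95H listed at 0.00 CPM and WT at 0.56 CPM (SE 0.50). RBM39 had 6 lower windows within 40 nt, at 2.87 to 3.10 CPM in P95H and 7.72 to 8.89 CPM in WT, where the P95H standard error was nearly as large as the mean. The other 2 hosts were HNRNPA1 and CIRBP, described above.

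Of 10 listed exon junction complex genes 9 were found by name among the counted genes. Any window was found in 5, and ACIN1 was the host (10% of the list). None of 22 factors of nonsense-mediated decay and none of 24 RNAs known as its substrates held a decay-annotated window. Any window was present in 10 of the factors and 8 of the substrates. The share of 7.63% is over genes with any window, and with so few of them nothing is read from these counts. Under other transcript classes 10 decay factors had 34 windows, of which 15 were higher in P95H (44.1%, beside 1704 of all 7737 such windows). Counted by gene, 5 of the 10 had a median change above 0, beside 35.6% of the 2298 genes with such windows. The substrates had 18 such windows in 7 genes, of which 1 window was higher. These counts take each position once, by its first entry, and leave out positions of decay-annotated windows. A gene with any window can therefore be missing from them.

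The transcript assigned to a window was often not the only candidate. Of the 363 windows 191 (52.6%) overlapped, on the same strand, a window that the table assigned to another transcript class, 164 of them to a protein-coding transcript, and 58 positions were themselves listed again under another class. Another gene on the same strand covered 74 of the windows. The sources used here do not give how the authors chose among transcripts, so the assignment does not show that the bound RNA was a decay substrate.

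Windows that overlapped another class were higher in P95H in 28 of 191 cases (14.7%), and those that did not in 71 of 172 (41.3%). Their larger means had medians of 3.97 CPM and 1.77 CPM. The same split gave 7.48% against 44.3% for retained-intron windows, 9.95% against 21.2% for protein-coding and 16.4% against 24.4% for processed-transcript windows. Counting overlap with any other listed window, 18.4% of the 245 overlapping and 45.8% of the 118 isolated decay-annotated windows were higher, beside 14.6% of 5670 and 40.1% of 2430 over all windows of the table. The median larger mean was 4.68 CPM for the 245 and 1.30 CPM for the 118, and the part of binding level in this difference was not tested.

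**Figure D4:**
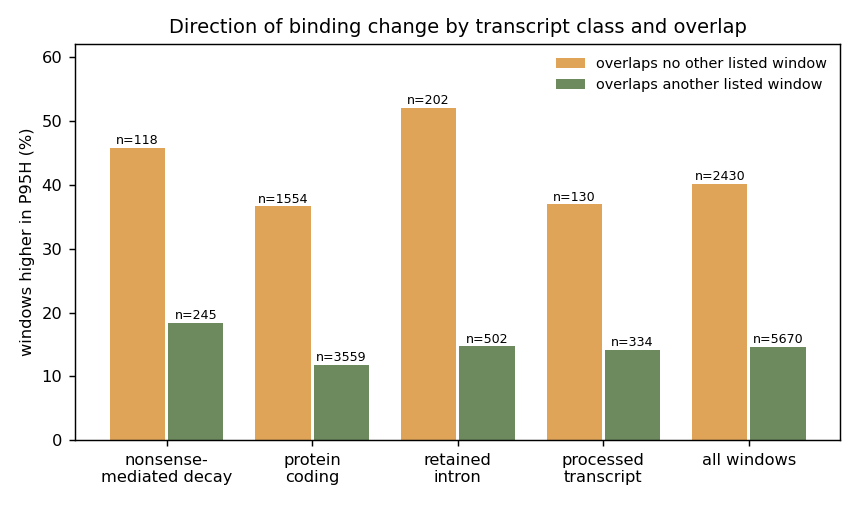
Share of windows higher in P95H (vertical axis, in percent, from 0) for each transcript class, split into windows that overlap no other listed window (orange) and windows that do (green), with the number of windows above each bar. In every class shown the isolated windows have the larger share, 45.8% against 18.4% for nonsense-mediated decay.

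The direction of the decay-annotated windows was set beside that of other windows of the same gene. Of the 186 host genes 103 had windows at other positions under other classes, 825 in all. In 92 of the 103 both medians had the same sign, lower in 76 and higher in 16. In 8 genes the decay-annotated median was higher and the other lower, and in 3 the reverse held. Since 252 of the 825 windows overlapped a decay-annotated one, the count was repeated with the 573 that did not, in 84 genes. There the medians had the same sign in 71, lower in 59 and higher in 12. In 8 the decay-annotated median was higher and the other lower, and in 5 the reverse held. Medians were lower in 64 of the 84 for decay-annotated windows and in 67 for the others, so that many would share a sign without any link, and no test was made. All 57 other windows of HSP90AA1, all 46 of METAP2, all 42 of ANP32A and all 32 of TPM3 were lower in P95H in the authors' deposited table, as were 98 of 100 of PTMA. In HERC2, 6 of 8 other windows were higher, and in WHSC1 3 of 3. Signs were opposite in some genes named above. RHOT2 and ACTB, with higher decay-annotated windows, had 1 other window each, and it was lower. PRPF4B, with lower ones, had 1 other window, which was higher. NAP1L1 and TPM4 each had 1 higher decay-annotated window, while all 14 and all 9 of their other windows were lower. The windows lay at a median of 55.2% of the way along the gene from its 5′ end. The first 10% of the gene held 70, of which 10 were higher in P95H, and the stretch beyond 90% held 59, of which 17 were higher. The share over all 363 was 27.3%. Positions of windows of other classes were not worked out, so no pattern particular to these windows is read from the counts.

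RNA-seq gave the level of the host genes in the same cell lines. Libraries held 37414093 to 45005605 counts, so 3 counts equal 0.0667 to 0.0802 CPM. Mitochondrial protein genes took 1.38% of counts in both replicate 1 libraries and 4.14% to 4.50% in the others, so libraries differed by replicate number, and values are given for each number. SRSF2 itself had 223.4 and 251.9 CPM in P95H, 286.1 CPM in the library labelled uninduced, and 221.8 and 241.3 CPM in WT, which does not tell the construct from the endogenous gene. The 9 erythroid markers summed to 1210 and 1760 CPM in P95H and 1170 and 2100 CPM in WT, with all 9 log2 changes negative (median -0.152) and 0 called on group alone, and their part in the results was not tested. The 7 megakaryocyte markers summed to 1030 and 1180 CPM in P95H and 1080 and 1200 CPM in WT. Of these 6 were tested, with 4 log2 changes negative and 2 positive (median -0.129) and 0 called on group alone. The 6 lymphoid markers summed to 0.644 to 1.33 CPM in any library, and the 6 myeloid ones to 123 to 173 CPM. The 8 epithelial and fibroblast markers summed to 31.7 to 40.7 CPM, with KRT18 at 25.99 to 32.87 CPM, while EPCAM and KRT19 had no count.

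RNA levels of the host genes did not change detectably on group alone, and 1 host was called with the replicate number as a block. EdgeR's quasi-likelihood test called 0 of the 175 host genes that passed the filter on low counts, and 0 of all 22007 genes tested (0.0%), with 227 (1.03%) at an unadjusted p under 0.05, of which 1 was a host. DESeq2 also called 0, over hosts and over all genes, with 1 host and 100 genes at an unadjusted p under 0.05. The median log2 change of the 175 was -0.013, beside 0.002 over all genes, with 96 negative and 79 positive. For replicate 1 alone it was -0.014, and for replicate 2 alone -0.010. With the replicate number as a block edgeR called 0.382% of all genes (0.186% higher, 0.195% lower) and 1 host. In that fit 1859 genes and 14 hosts had an unadjusted p under 0.05. With genes of low count kept it called 0.0385% (0.00514% higher, 0.0334% lower) and 0 hosts, as the account of the processing describes. The change was smaller than 0.25 on the log2 scale in 166 of the 175, and 35 (20%) had P95H and WT levels that did not overlap, beside 24.1% of all genes. The 11 hosts below the filter carried 32 windows, 13 of them those of RP11-542C16.2 and 6 those of HNRNPUL2-BSCL2. Hosts were well expressed, with a median of 89.9 CPM against 4.21 CPM over all genes tested.

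None of the most strongly bound hosts that were tested was called for RNA. RP11-542C16.2, also among them, had 0 counts in every library and was not tested. PTMA had 1804 and 1756 CPM in P95H and 1912 and 1843 CPM in WT, a log2 change of -0.07 (SE 0.12). HSP90AA1 had 2262 and 2365 CPM in P95H and 2144 and 2646 CPM in WT, at -0.04 (SE 0.15). In PTMA the groups did not overlap and in HSP90AA1 they did. ANP32A had 431.6 and 428.1 CPM in P95H and 443.5 and 411.1 CPM in WT, at 0.02 (SE 0.11). DNMT1 had 602.0 and 655.0 CPM in P95H and 634.9 and 681.8 CPM in WT, at -0.06 (SE 0.12). The groups overlapped in both genes. PRPF4B had 211.2 and 224.7 CPM in P95H and 198.7 and 197.2 CPM in WT, at 0.15 (SE 0.10), without overlap of the groups.

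Genes with large or repeated binding changes were not called either. RHOT2 had 32.26 and 44.32 CPM in P95H and 32.30 and 41.53 CPM in WT, and FAM193B 31.19 and 46.23 CPM in P95H and 32.76 and 38.11 CPM in WT. In both, replicate 2 was above replicate 1 in each genotype. ACTB had 2942 and 3193 CPM in P95H and 3548 and 3046 CPM in WT, at -0.10 (SE 0.15). CDK11A had 1.371 and 2.477 CPM in P95H and 1.497 and 2.552 CPM in WT, low values in a gene whose reads can be split with CDK11B. HERC2, with higher binding in 5 windows, had 351.1 and 361.2 CPM in P95H and 367.4 and 478.1 CPM in WT, at -0.24 (SE 0.15). None of these passed edgeR's test, with adjusted p of 0.9999 for each.

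CHD5, a chromatin remodeler gene with 3 lower windows, was the host with an unadjusted p under 0.05 on group alone. Its RNA stood at 32.62 and 22.27 CPM in P95H, 31.85 CPM in the library labelled uninduced, and 20.91 and 17.12 CPM in WT, a log2 change of 0.54 (SE 0.21, edgeR adjusted p 0.9999). With the replicate number as a block CHD5 was called, the 1 host that was. The authors' means at its strongest decay-annotated window were 7.21 CPM in P95H (SE 3.42) and 16.15 CPM in WT (SE 6.67). The RNA values lay higher in P95H and the binding means lower. CTC-487M23.8, the host with an RNA difference over 2-fold, had 0.482 and 0.248 CPM in P95H and 0.264 and 0.0496 CPM in WT, the last below what 3 counts give, and its 3 windows, in a stretch shared with ZRSR1 on the same strand, were lower. Both genes were singled out after their values were seen.

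RNA changes centred near 0 in genes with higher and in genes with lower windows. The 57 tested hosts with higher windows alone had a median log2 RNA change of -0.004 (28 positive) and the 114 with lower windows alone one of -0.013 (50 positive). Across the 175 hosts the median binding change and the RNA change had a Spearman rank correlation of 0.011, and the strongest WT mean of a gene and its WT RNA level one of 0.20. These are descriptions across genes, which are not independent replicates.

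**Figure D5:**
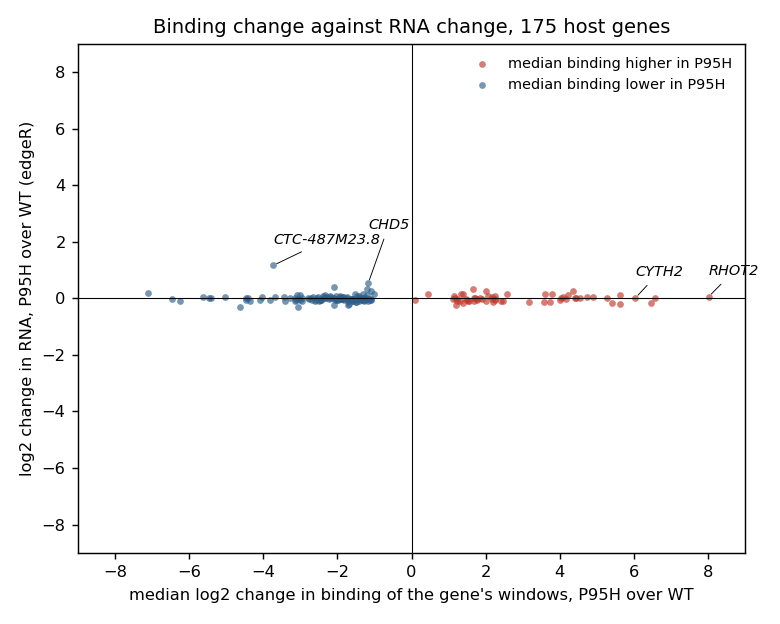
Log2 change of RNA by edgeR (vertical axis) against the median of the authors' log2 changes of binding (horizontal axis), both P95H over WT and on equal scales, for the 175 host genes tested, red where the median binding change is positive and blue where negative. RNA changes lie between -0.31 and 1.17 while binding changes span several units on either side of 0.

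No gene of the decay pathway was called for RNA. Of 22 decay factors 21 were tested and edgeR called 0, with 13 negative and 8 positive at a median log2 change of -0.016 and a range of -0.17 to 0.08, beside the 0.002 of all genes. The smallest unadjusted p were those of DHX34, a helicase that activates the pathway, and SMG8, a subunit of the SMG1 kinase complex. DHX34 had 58.68 and 68.93 CPM in P95H and 63.67 and 80.62 CPM in WT, and SMG8 42.01 and 49.90 CPM in P95H and 44.34 and 59.37 CPM in WT, with overlap of the groups in both. Among 23 known substrate RNAs tested, 0 were called and the median was -0.019. SR proteins (13 tested) had a median of 0.061, hnRNPs and other regulators (27 tested) 0.006 and exon junction complex genes (9 tested) -0.001, with 0 called in each on group alone. Gene-level counts do not separate decay-prone from productive isoforms of a gene, and isoform levels were not analysed here.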

How the data were processed

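HITS-CLIP values are the authors' own. Per the file headers, the deposited table holds log2 changes (P95H over WT), an FDR (an adjusted p-value, its adjustment not stated), and mean CPM per genotype with its standard error, where the total behind CPM is not stated. The 8324 entries held 8100 positions. Entries with the biotype nonsense_mediated_decay were 366, at 363 positions, each taken by its first entry. Identical histone H4 copies matched base for base only with both window ends counted. RNA-seq values are the deposited raw counts per gene. GRCh38.p3, edgeR, TopHat2 2.0.14 and STAR 2.5.3a stand in the submitters' processing notes without roles, and the sources used here do not give whether counting used strand.

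Tests used edgeR 4.0.16 under R 4.3.3 (filterByExpr, TMM, quasi-likelihood test of P95H against WT on group alone, two-sided, Benjamini-Hochberg adjusted p under 0.05 over all genes) and checked on simulated counts. DESeq2 1.42.0 was an alternative. CPM of RNA are TMM-scaled, log2 CPM had a prior count of 2, and standard errors were derived from the test statistic. Python 3.11.15, pandas 2.3.3 and matplotlib 3.10.9 were used for windows and figures.

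Windows named were the 8 largest rises and 8 largest falls at or above the median level and the 8 with most binding, 1 per gene, plus genes with 3 or more windows, with both directions, or on a list. RNA levels are given for some of these. Shares of genes beside the list counts, and counts without overlapping windows, were added after the other results were seen. No test compares windows between genotypes or classes. The members and lists were chosen with earlier results of these data known. Interval and floor cover counting error only.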

Additional observations from a re-analysis of the deposited data

How the results depend on the processing

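The share of decay-annotated windows higher in P95H, 27.3%, was 34.4% with each gene counted once and 17.5% without windows below the median level. It stayed inside its interval, at 26.0% to 32.0%, under the other 6 alternatives. Of these 1, leaving out the 4 genes with most windows, was chosen after seeing the data. Another, a log2 ratio of the mean CPM, keeps the sign of all 363 windows by construction, so it could not move the share. The median log2 change of the windows was -2.44 to -1.16. The -2.44 came from keeping only changes of at least 4-fold, which enlarges it by construction. The stricter adjusted p gave -2.33. The -1.16 came from the ratio with a pseudocount of 0.5 CPM, which shrinks ratios. Under the remaining alternatives the median was -1.57 to -1.46. With windows extended by 10 nt, CCNG matched 6 of 7 lower windows in place of 4 of 8, since more bases were read, and no higher window stayed inside a promoter entry, nor did one pass an adjusted p of 0.001.

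With a replicate block edgeR called 84 genes (41 higher, 43 lower) and 1 host, CHD5 (log2 change 0.52, adjusted p 0.00587). Among listed genes it also called PTBP2 of the splicing regulators (log2 change 0.36, adjusted p 0.0448), HBE1 of the erythroid markers (-1.58, adjusted p 1.38e-05) and ITGB3 of the megakaryocyte markers (-0.62, adjusted p 4.72e-06). Same-numbered libraries deviated together (r = 0.535 across genes), and with 2 numbers the labels do not say what a number shares. Keeping genes of low count gave 15 calls (2 higher, 13 lower) by edgeR and 0 hosts, with 2 hosts at an unadjusted p under 0.05, and every other alternative called 0. The median log2 RNA change of hosts was -0.024 to 0.009 under these and -0.045 to 0.002 when 1 library was left out. Leaving out 1 library turned the sign of 9 of 15 genes named, none of them called, with log2 changes of -0.056 to 0.13 for SRSF2, -0.19 to 0.11 for HSP90AA1, -0.048 to 0.071 for ANP32A, -0.56 to 0.36 for CDK11A, -0.21 to 0.017 for ACTB, -0.2 to 0.27 for RHOT2, -0.19 to 0.39 for FAM193B, -0.33 to 0.00056 for DHX34 and -0.36 to 0.049 for SMG8. CHD5 stood at 0.23 to 0.77. Depth was no limit for most hosts, while low genes such as CTC-487M23.8 (0.45 to 2.8) rest on few counts.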
